A study of Mus musculus with 16 samples.

Results

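Adherens junctions and desmosomes are the contacts by which epithelial cells hold on to each other, and 10 genes of these contacts were followed here across 4 groups of alveolar type II cells. The genes were chosen by name from the 34832 gene names on the array: the epithelial cadherin Cdh1, the adhesion molecule Epcam, the catenins Ctnnb1 and Jup, the desmosomal cadherins Dsg2 and Dsc2, the plakophilins Pkp1, Pkp2 and Pkp3, and the linker Dsp. All 10 were among the 25419 genes that were bright enough to test. Each gene was read by its brightest probe, and the 10 probes used were well above background on all 16 arrays.

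In an adherens junction, cadherins of neighbouring cells bind each other outside the cell, and catenins tie their tails to actin inside it. In a desmosome, desmogleins and desmocollins bind across the gap, and plakoglobin, plakophilins and desmoplakin tie them to keratin filaments. Beta-catenin also acts in the nucleus as the transcriptional arm of Wnt signalling. Alveolar type II cells secrete surfactant, and they and the flat type I cells seal the air surface of the lung through such contacts.

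The study exposed primary type II cells from the lungs of C57BL/6 mice to hyperoxia (85% O2) or kept them in normoxia (21% O2), for 6 h or for 24 h. Total RNA was read on one-colour arrays, with 4 arrays in each of the groups hyperoxia 24 h, normoxia 24 h, hyperoxia 6 h and normoxia 6 h. The labels give no genetic alteration, no age and no sex for the animals, and do not say whether replicates came from separate animals or cultures, so p-values measure the spread between these arrays, which may be technical. A level below is the log2 signal less the 75th percentile of log2 signal of its array, errors beside a log2 fold change are SE, and levels of different genes are not compared. A gene rose or fell where the adjusted p of limma, a linear model fitted over all genes, was under 0.05.

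Between 53.6% and 69.0% of an array's probes were well above background. The 24 h arrays shared 1 slide and the 6 h arrays a different one, so slide and time cannot be told apart, and within a slide hyperoxia and normoxia held separate rows, so oxygen and slide row cannot be told apart. Of 10 type II cell markers 9 were tested and Slc34a2, a phosphate transporter gene of these cells, was not well above background on any array. The summed signal of the type II list, in multiples of each array's 75th percentile, was 29.3 to 36.4 in hyperoxia and 39.5 to 45.1 in normoxia at 24 h, and 56.2 to 80.4 in hyperoxia and 60.0 to 73.9 in normoxia at 6 h. The type II markers did not all follow that sum at 24 h. Of the 9 tested, 4 fell in hyperoxia against normoxia there and 1 rose. Mean levels at 24 h were 3.3 in hyperoxia and 4.34 in normoxia for Lamp3, and 2.58 and 3.37 for Etv5. They were 3.1 in hyperoxia and 2.42 in normoxia for Abca3, and 1.84 and 1.39 for Sftpc, whose arrays overlapped. All 10 fibroblast and smooth muscle markers were bright enough to test too, and which cells in the cultures expressed them was not tested. That list summed to 1470 to 1570 in hyperoxia and 1580 to 1810 in normoxia at 24 h, and to 868 to 1150 in hyperoxia and 921 to 1100 in normoxia at 6 h.

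None of the 10 junction genes passed for hyperoxia against normoxia at either time in the fit without a replicate block, while most fell between the times. With the replicate number within each time as a block, Epcam passed at 24 h (adjusted p = 0.0203), where 33.4% of all genes did. In the limma fit without a block 0 of 10 passed at 6 h, where 0.327% of all genes passed. At 24 h 0 of 10 passed in that fit, where 28.3% of all genes did. At an unadjusted p under 0.05 the counts were 0 at 6 h and 2 at 24 h, Ctnnb1 and Epcam. The share of all genes at that unadjusted threshold was not determined. At 24 h it cannot be under the 28.3% that passed after adjustment, so 2 of 10 was not above it. Hyperoxia and normoxia arrays overlapped for all 10 genes at 6 h, when 4.32% of all genes did not overlap. At 24 h against 6 h, 7 of 10 genes fell in hyperoxia and none rose, where 27.3% of all genes fell and 25.0% rose. Over the same interval in normoxia 6 of 10 fell and 1, Pkp3, rose, where 23.5% of all genes fell and 20.6% rose. The genes' median log2 change over time was -0.83 in hyperoxia and -1.11 in normoxia, against -0.02 for all genes in each. Every 24 h array lay below every 6 h array for 6 of the 10 genes in hyperoxia (24.1% of all genes) and for 5 in normoxia (22.2% of all genes), and above for 1 in normoxia (21.9% of all genes). The time comparisons share their 24 h and 6 h arrays with the oxygen comparisons, and in bulk RNA fewer cells of a type and less RNA per cell cannot be told apart.

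**Figure D1:**
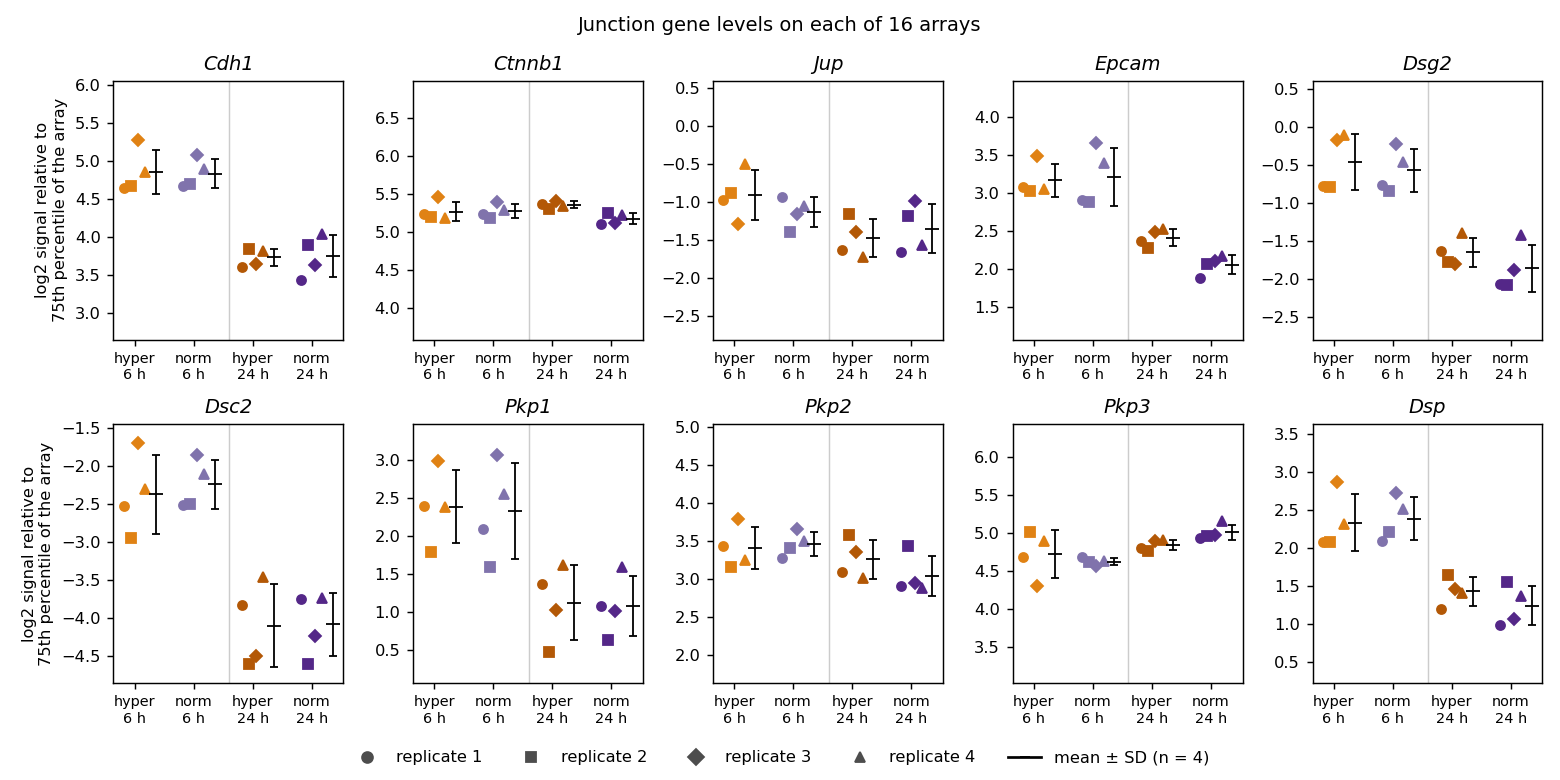
Level of each of the 10 junction genes on all 16 arrays. The y axis is log2 signal relative to the array's 75th percentile and spans the same width in every panel, points are arrays with 1 marker shape per replicate number, and black bars are means with SD (n = 4). Cdh1, Epcam, Dsg2, Dsc2, Pkp1 and Dsp were lower at the later time in hyperoxia and in normoxia, while Ctnnb1 group means stayed within a range of 0.18.

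Cdh1 encodes E-cadherin, the classical cadherin of epithelia. Its probe, A_51_P137336, lies at chr8:109193812-109193871 in the mm9 annotation of the array files and was printed on 10 spots, whose log2 SD within an array had a median of 0.06. At 24 h Cdh1 levels were 3.61, 3.84, 3.65 and 3.82 in hyperoxia (replicates 1 to 4) and 3.43, 3.89, 3.63 and 4.04 in normoxia. At 6 h they were 4.64, 4.67, 5.27 and 4.85 in hyperoxia and 4.67, 4.69, 5.08 and 4.89 in normoxia. Every 24 h array lay below every 6 h array, and the oxygen groups overlapped at both times. Cdh1 fell 2.19-fold over time in hyperoxia (log2 fold change -1.13 ± 0.15, adjusted p = 3.79e-05) and 2.12-fold in normoxia (-1.08 ± 0.15, adjusted p = 0.000114). The hyperoxia effect at 24 h was -0.02 ± 0.15, with a 95% interval of -0.35 to 0.31, and at 6 h it was 0.03 ± 0.15 with an interval of -0.30 to 0.35.

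Epcam encodes a transmembrane adhesion protein of epithelia that is cut at the membrane to release a signalling tail. At 24 h its levels were 2.36, 2.27, 2.49 and 2.52 in hyperoxia and 1.88, 2.07, 2.10 and 2.17 in normoxia. At 6 h Epcam read 3.08, 3.03, 3.49 and 3.05 in hyperoxia and 2.91, 2.88, 3.66 and 3.39 in normoxia. The oxygen groups did not overlap at 24 h, where every hyperoxia array was the higher, and overlapped at 6 h. The 24 h difference was 1.28-fold (0.36 ± 0.16, 95% interval 0.02 to 0.70) with an adjusted p of 0.113, and at 6 h it was -0.05 ± 0.16. Same-numbered arrays deviated together at 24 h. With the replicate number within each time as a block the 24 h difference of Epcam passed, at an adjusted p of 0.0203. In that fit 33.4% of all genes passed. Of all genes 17.9% had every hyperoxia array above every normoxia array at 24 h, and 2 of the 10 junction genes did. Over time Epcam fell 1.68-fold in hyperoxia (-0.75 ± 0.16, adjusted p = 0.00134) and 2.23-fold in normoxia (-1.16 ± 0.16, adjusted p = 9.04e-05). The test of the difference between these falls gave 0.41 ± 0.22, adjusted p = 0.284.

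The Epcam probe, A_52_P447944, spans 829 bases of the genome at chr17:88048972-88049800 (mm9) with 60 bases of sequence, so it crosses an exon junction and reads spliced RNA. It is shown because the 24 h difference of Epcam rests on this 1 probe.
Epcam probe: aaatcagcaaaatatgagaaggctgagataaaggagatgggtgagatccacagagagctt
The 250 bases before the transcription start are shown for Epcam and Dsp, which fell over time in both oxygen groups, and for Ctnnb1, which passed in neither at the scaling used, so that their letters can be set side by side. RefSeq windows (GRCm38.p6) were held for 4 of the 10 genes, Ctnnb1, Jup, Dsp and Epcam, and lie at chr17:87635729-87635978 on the plus strand for Epcam, chr13:38151044-38151293 on the plus strand for Dsp and chr9:120933150-120933399 on the plus strand for the upstream one of the Ctnnb1 starts. Capitals mark 2 motifs searched on both strands: the E-box CANNTG, of which CAGGTG is the form bound by the Snail and ZEB repressors, and the GC box GGGCGG, bound by Sp factors.
Epcam promoter: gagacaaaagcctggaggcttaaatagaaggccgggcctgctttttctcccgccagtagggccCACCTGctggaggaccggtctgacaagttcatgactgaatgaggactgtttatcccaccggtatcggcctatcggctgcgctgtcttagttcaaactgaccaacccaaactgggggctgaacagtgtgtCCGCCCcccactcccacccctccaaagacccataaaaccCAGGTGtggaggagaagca
Dsp promoter: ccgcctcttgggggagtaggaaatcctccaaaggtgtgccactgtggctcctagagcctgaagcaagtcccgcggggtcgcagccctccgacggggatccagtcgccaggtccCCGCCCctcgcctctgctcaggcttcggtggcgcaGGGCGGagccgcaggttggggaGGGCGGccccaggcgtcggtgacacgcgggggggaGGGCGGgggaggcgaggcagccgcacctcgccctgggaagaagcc
Ctnnb1 promoter: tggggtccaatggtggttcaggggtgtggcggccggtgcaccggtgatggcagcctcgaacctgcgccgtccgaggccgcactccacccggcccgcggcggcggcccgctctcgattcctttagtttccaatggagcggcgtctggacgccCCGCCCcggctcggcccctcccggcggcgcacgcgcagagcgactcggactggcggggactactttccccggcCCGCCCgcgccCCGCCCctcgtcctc
The Epcam window held 2 E-boxes, both of the form CAGGTG, beginning 187 and 19 bases before the start, and 1 GC box. No letters CANNTG stood in the windows of Dsp, Ctnnb1 and Jup, which held 4 GC boxes in Dsp, 3 in the Ctnnb1 window shown and 2 in Jup. Of 32851 mouse windows of the same length 66.2% held CANNTG, 17.2% held CAGGTG and 32.7% held the GC box. These matches describe the letters and were not tested for binding.

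Ctnnb1 encodes beta-catenin, which links cadherin tails to alpha-catenin and carries the Wnt signal into the nucleus. Its probe, A_52_P424585, lies at chr9:120869274-120869333 (mm9). At 24 h Ctnnb1 levels were 5.37, 5.30, 5.41 and 5.34 in hyperoxia and 5.11, 5.25, 5.12 and 5.22 in normoxia. At 6 h the levels were 5.23, 5.20, 5.46 and 5.18 in hyperoxia, against 5.23, 5.19, 5.39 and 5.29 in normoxia. All hyperoxia arrays were above all normoxia arrays at 24 h by a small margin, and the groups overlapped at 6 h. The 24 h difference was 1.13-fold (0.18 ± 0.07, interval 0.03 to 0.33) with an adjusted p of 0.0716, and it passed under quantile normalization (0.21, adjusted p = 0.0143). Over time Ctnnb1 gave 0.09 ± 0.07 in hyperoxia (adjusted p = 0.299) and -0.10 ± 0.07 in normoxia (adjusted p = 0.272). The normoxia value was -0.24 and passed under quantile normalization (adjusted p = 0.00677) and in the authors' log2 table (adjusted p = 0.00676). In hyperoxia Ctnnb1 passed without hyperoxia 6 h replicate 3 (0.15, adjusted p = 0.0446) and under median scaling (0.31, adjusted p = 0.00647).

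Jup encodes plakoglobin, the catenin that adherens junctions and desmosomes share. Its probe, A_65_P13547, lies at chr11:100238038-100238097 on the minus strand (mm9). At 24 h Jup levels were -1.63, -1.16, -1.39 and -1.72 in hyperoxia and -1.66, -1.18, -0.99 and -1.57 in normoxia. At 6 h they were -0.97, -0.88, -1.29 and -0.50 in hyperoxia and -0.93, -1.40, -1.16 and -1.05 in normoxia. The groups overlapped in every comparison. Jup fell 1.48-fold over time in hyperoxia (-0.57 ± 0.18, adjusted p = 0.0188), a call that was lost without hyperoxia 24 h replicate 1 (adjusted p = 0.0514), hyperoxia 24 h replicate 4 (0.0577) or hyperoxia 6 h replicate 4 (0.0674), and under median scaling (-0.35, adjusted p = 0.119). With normexp background correction the change in hyperoxia was -0.36 and still passed (adjusted p = 0.0489). At the scaling used the change in normoxia was -0.22 ± 0.18 (adjusted p = 0.353). The difference of the hyperoxia effects, -0.35 ± 0.26, did not pass (adjusted p = 0.447).

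The desmosomal cadherins Dsg2 and Dsc2, the desmoglein and desmocollin of simple epithelia, both lie on chromosome 18 and fell in both oxygen groups. Dsg2 (probe A_51_P249848, chr18:20761177-20761236, mm9) had levels at 24 h of -1.63, -1.77, -1.80 and -1.39 in hyperoxia and -2.06, -2.08, -1.88 and -1.42 in normoxia. At 6 h Dsg2 read -0.77, -0.79, -0.17 and -0.11 in hyperoxia and -0.76, -0.84, -0.22 and -0.46 in normoxia. The times did not overlap for Dsg2, which fell 2.28-fold in hyperoxia (-1.19 ± 0.20, adjusted p = 0.000191) and 2.44-fold in normoxia (-1.29 ± 0.20, adjusted p = 0.000186). Another Dsg2 probe, A_52_P88091, which was well above background on 14 of 16 arrays, gave -1.28 ± 0.58 in hyperoxia (adjusted p over probes 0.0790) and -1.99 ± 0.58 in normoxia (0.0135), and the remaining probe was not well above background on any array.

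Dsc2 (probe A_55_P1965303, chr18:20189299-20189358, minus strand, mm9) also fell in both oxygen groups. At 24 h its levels were -3.83, -4.60, -4.50 and -3.46 in hyperoxia and -3.75, -4.60, -4.24 and -3.74 in normoxia. At 6 h Dsc2 stood at -2.53, -2.95, -1.70 and -2.30 in hyperoxia and at -2.51, -2.50, -1.85 and -2.10 in normoxia. No 24 h array reached a 6 h array, while the oxygen groups overlapped at both times. The fall was 3.31-fold in hyperoxia (-1.73 ± 0.30, adjusted p = 0.000304) and 3.59-fold in normoxia (-1.84 ± 0.30, adjusted p = 0.000317). With normexp background correction the log2 change was -0.83 in hyperoxia and -0.80 in normoxia, and still passed. At the scaling used these falls were the largest of the 10 genes, which they were not with normexp, where Cdh1 fell by 1.15 in hyperoxia and 1.14 in normoxia. Hyperoxia effects at 24 h were 0.21 ± 0.20 for Dsg2 (interval -0.21 to 0.63) and -0.01 ± 0.30 for Dsc2 (interval -0.66 to 0.64).

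The plakophilins are armadillo proteins that cluster desmosomal cadherins and bind desmoplakin, and of the 3 genes Pkp1 fell over time in both oxygen groups, Pkp3 rose in normoxia and Pkp2 did not pass. Pkp1 (probe A_51_P151732, chr1:137768027-137768086, minus strand, mm9) had 24 h levels of 1.38, 0.48, 1.03 and 1.62 in hyperoxia and 1.08, 0.64, 1.02 and 1.6 in normoxia. At 6 h Pkp1 read 2.40, 1.80, 2.99 and 2.38 in hyperoxia and 2.10, 1.6, 3.07 and 2.56 in normoxia. The times did not overlap in hyperoxia and met at 1.6 in normoxia. Pkp1 fell 2.40-fold in hyperoxia (-1.26 ± 0.33, adjusted p = 0.00567) and 2.37-fold in normoxia (-1.24 ± 0.33, adjusted p = 0.00801).

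Pkp3 (probe A_55_P2129578, chr7:148276140-148276199, mm9) rose over time in normoxia. At 24 h its levels were 4.80, 4.76, 4.89 and 4.90 in hyperoxia and 4.93, 4.96, 4.97 and 5.15 in normoxia. At 6 h Pkp3 read 4.68, 5.01, 4.30 and 4.89 in hyperoxia and 4.68, 4.61, 4.56 and 4.62 in normoxia. The normoxia times did not overlap and the hyperoxia times did. Pkp3 rose 1.30-fold over time in normoxia (0.38 ± 0.12, adjusted p = 0.0158) and gave 0.12 ± 0.12 in hyperoxia (adjusted p = 0.412), with the rise in normoxia lost under quantile normalization (adjusted p = 0.129). Every hyperoxia array was below every normoxia array at 24 h, as for 15.3% of all genes, yet the difference was -0.17 ± 0.12 with an adjusted p of 0.328. Pkp2 (probe A_51_P225427, chr16:16272648-16272707, mm9) ranged over 3.02 to 3.58 in hyperoxia and 2.89 to 3.44 in normoxia at 24 h, and over 3.16 to 3.79 in hyperoxia and 3.28 to 3.66 in normoxia at 6 h. The Pkp2 groups overlapped throughout, with -0.15 ± 0.16 over time in hyperoxia and -0.41 ± 0.16 in normoxia (adjusted p = 0.0533). The normoxia change of Pkp2 passed in 8 of 17 alternatives, among them normexp (-0.51, adjusted p = 0.0111), quantile normalization (-0.47, adjusted p = 0.0206) and leaving out normoxia 24 h replicate 2 (-0.54, adjusted p = 0.0147) or normoxia 6 h replicate 1 (-0.47, adjusted p = 0.0477).

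Dsp encodes desmoplakin, which joins the desmosomal plaque to keratin filaments. Its probe A_51_P101460, at chr13:38290121-38290180 (mm9), was printed on 10 spots with a median log2 SD of 0.07. At 24 h Dsp levels were 1.20, 1.65, 1.46 and 1.41 in hyperoxia and 0.99, 1.55, 1.07 and 1.37 in normoxia. At 6 h they were 2.08, 2.08, 2.87 and 2.32 in hyperoxia and 2.10, 2.21, 2.73 and 2.51 in normoxia. Dsp was lower on every 24 h array than on any 6 h array, and the oxygen groups overlapped. It fell 1.88-fold in hyperoxia (-0.91 ± 0.19, adjusted p = 0.00117) and 2.21-fold in normoxia (-1.14 ± 0.19, adjusted p = 0.000351). The hyperoxia effect was 0.18 ± 0.19 at 24 h (interval -0.22 to 0.59) and -0.05 ± 0.19 at 6 h.

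A weaker Dsp probe, A_51_P201884, crosses an exon junction, with 60 bases drawn from the 1100 bases at chr13:38285480-38286579 (mm9), and is shown as the check on the brighter probe.
Dsp junction probe: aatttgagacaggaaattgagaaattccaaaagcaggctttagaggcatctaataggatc
This probe cleared the background on 12 of 16 arrays and gave -0.84 ± 0.42 over time in hyperoxia (adjusted p over probes 0.112) and -0.94 ± 0.42 in normoxia (0.0891), the sign of the brighter probe without passing.

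**Figure D2:**
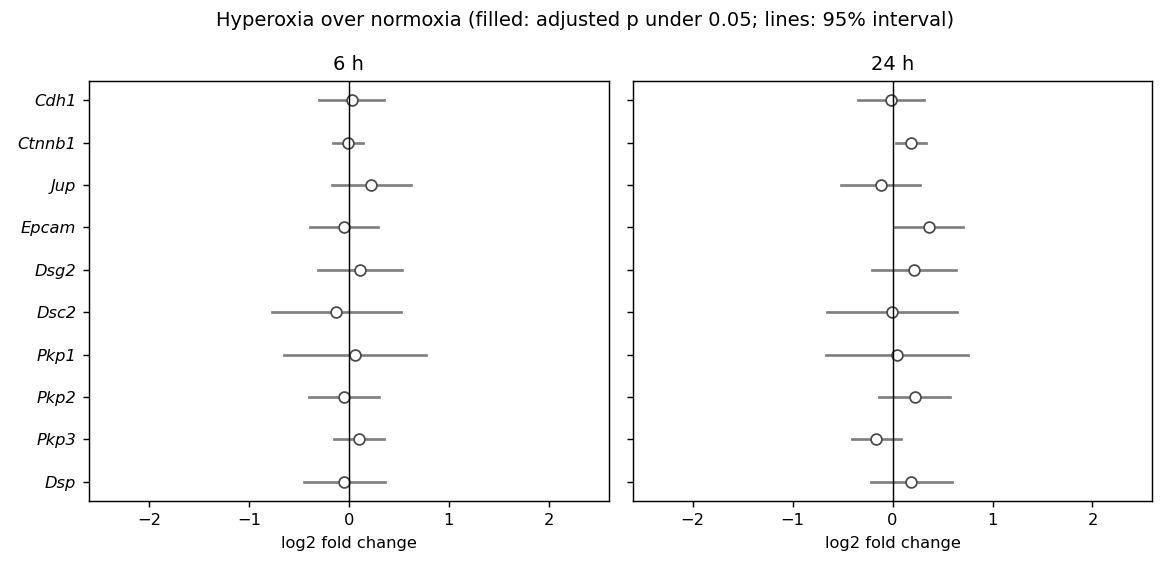
Log2 fold change, hyperoxia over normoxia, of the 10 junction genes at 6 h and 24 h (x axis), with 95% intervals as lines and open circles where the adjusted p was 0.05 or more. No gene is filled, and at 24 h the intervals of Ctnnb1 (0.03 to 0.33) and Epcam (0.02 to 0.70) lie above 0.

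**Figure D3:**
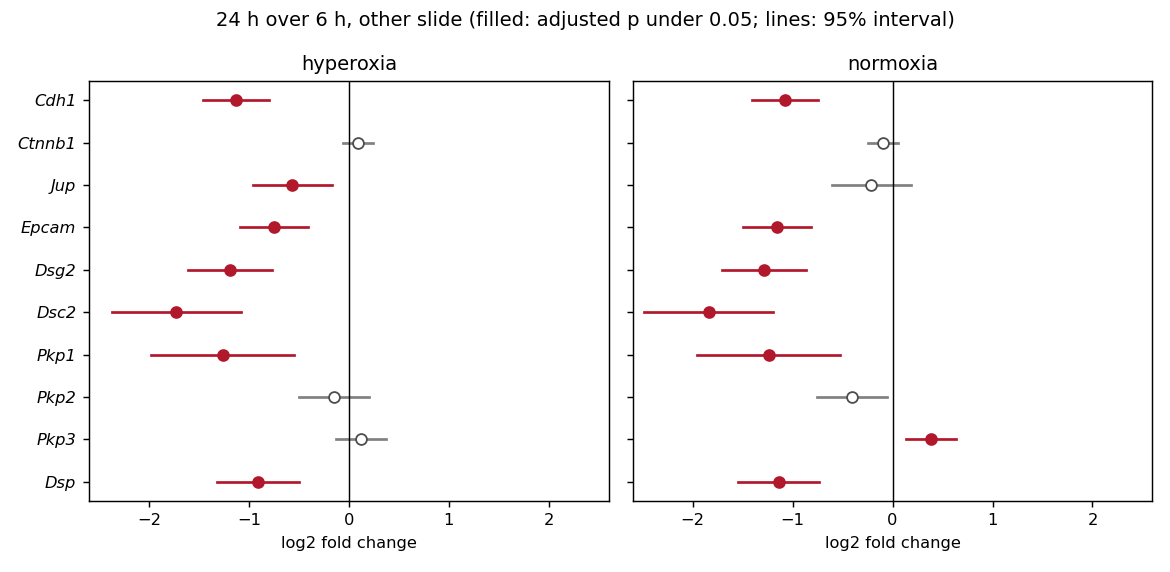
Log2 fold change, 24 h over 6 h, in hyperoxia and in normoxia (x axis), with 95% intervals as lines and filled circles where the adjusted p was under 0.05. In hyperoxia 7 genes are filled on the lower side, and in normoxia 6 are lower and Pkp3 is higher.

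Markers of several cell types changed over the same interval. Of the 9 tested type II markers 7 fell and 0 rose over time in hyperoxia, and 6 fell and 1 rose in normoxia, with the surfactant protein gene Sftpc at -2.51 ± 0.43 in hyperoxia and -2.50 ± 0.43 in normoxia. Of the 10 fibroblast and smooth muscle markers 7 rose and 0 fell in hyperoxia, and 8 rose and 0 fell in normoxia. Of 7 tested type I markers 3 fell and 2 rose in each oxygen group. Of 6 tested endothelial markers 1 fell and 1 rose in hyperoxia, and 1 fell and 2 rose in normoxia. Beside these counts, 27.3% of all genes fell and 25.0% rose in hyperoxia, and 23.5% fell and 20.6% rose in normoxia. The airway epithelium list summed to 12.0 to 14.5 in hyperoxia and 11.5 to 14 in normoxia at 24 h, and to 32.3 to 58.2 in hyperoxia and 31.7 to 56.5 in normoxia at 6 h. The mesothelium list summed to 73.3 to 119 in hyperoxia and 67.2 to 86.7 in normoxia at 24 h, and to 103 to 154 in hyperoxia and 105 to 138 in normoxia at 6 h. The macrophage list summed to 71.3 to 79.1 in hyperoxia and 57.9 to 73.5 in normoxia at 24 h, and to 28.6 to 39.9 in hyperoxia and 29.0 to 33.7 in normoxia at 6 h. At the later time the mesothelium and airway sums were thus the lower and the macrophage sums the higher, apart from an overlap of mesothelium in hyperoxia. A sum weighs its brightest genes most, and single markers did not all follow it. Of 8 macrophage markers 3 fell and 2 rose in hyperoxia, and 3 fell and 1 rose in normoxia. Of 7 tested airway markers 3 fell and 2 rose in hyperoxia, and 4 fell and 2 rose in normoxia. Of 4 mesothelium markers 1 fell and 0 rose in hyperoxia, and 1 fell and 1 rose in normoxia. The part of these changes in the fall of the junction genes was not tested. At 24 h hyperoxia moved no junction gene past the threshold in the fit without a block, while Epcam or Ctnnb1 passed in some alternatives. In that fit 4 of the 9 tested type II markers fell and 1 rose in hyperoxia against normoxia at 24 h. Of all genes 12.8% fell and 15.5% rose in that comparison.

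Within the 6 h groups the third replicate was most often the highest array for these genes in both oxygen groups. Deviations from group means were correlated between genes, with r from -0.68 for Pkp2 and Pkp3 to 0.92 for Cdh1 and Dsp. The counts of genes are therefore not independent, and such counts over all genes were not taken. Hyperoxia 6 h replicate 3 was the highest of its 4 arrays for 7 of 10 genes (Cdh1, Ctnnb1, Epcam, Dsc2, Pkp1, Pkp2 and Dsp) and the lowest for Jup and Pkp3. Normoxia 6 h replicate 3 was the highest for 8 of 10 genes, all of those 7 and Dsg2, and the lowest for Pkp3. On the same arrays the summed fibroblast and smooth muscle markers were the lowest of their groups, 868 in hyperoxia against 922 to 1150 on its other arrays and 921 in normoxia against 953 to 1100. The airway sums were the highest, 58.2 in hyperoxia and 56.5 in normoxia, as were those of mesothelium, 154 in hyperoxia and 138 in normoxia. The type II sum was the highest of its group in hyperoxia replicate 3 (80.4) and the lowest in normoxia replicate 3 (60.0). The part of these sums in the junction gene levels was not tested. At 24 h the fourth replicate was the highest most often, for 5 genes in hyperoxia and 6 in normoxia.

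**Figure D4:**
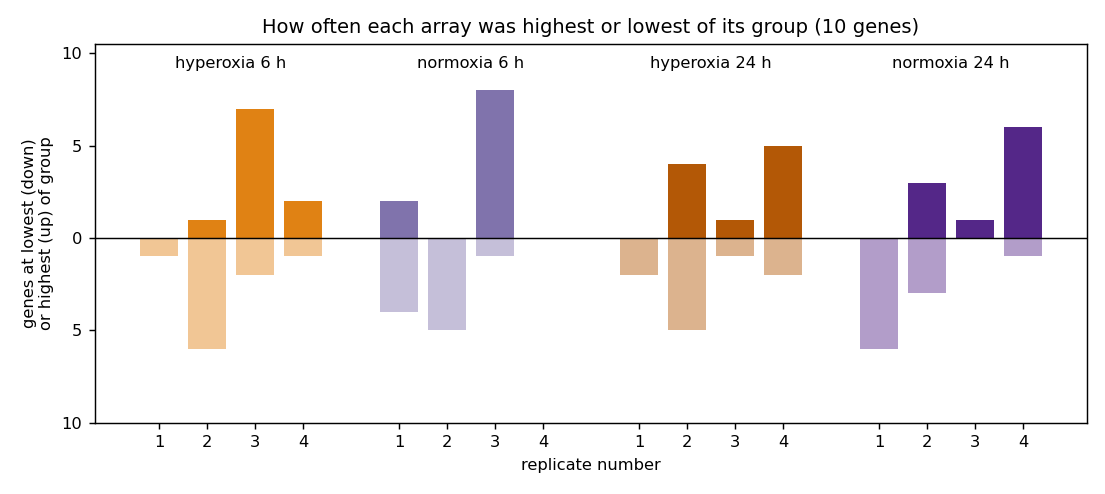
Number of the 10 junction genes for which each array was the highest (upward, full colour) or the lowest (downward, pale) of its group of 4, by replicate number (x axis). The third replicate at 6 h leads with 7 genes in hyperoxia and 8 in normoxia.

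The genes whose pattern over the 16 arrays was most like a junction gene were taken by Pearson r, as a description of arrays that part into 2 times and 2 slides. For Cdh1 they were Sema4d (r = 0.993), Pdgfb (0.993) and Krt81 (0.992), and for Dsp they were D630045M09Rik (0.991), Rin2 (0.990) and BC021767 (0.988). For Epcam they were Rdh10 (0.981), Clic6 (0.980) and Cd14 (0.979). The most like Ctnnb1 were Sft2d2 (0.938), Tmc7 (0.919) and Ctf1 (0.912).

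Genes around the 10 were taken from 11 lists of junction components and regulators, 100 genes of which 89 were tested. At 6 h 0 of the 89 passed in limma, where 0.327% of all genes did. At an unadjusted p under 0.05 2 of the 89 passed, without a share of all genes taken at that threshold. The 2 brightest genes of each list, 22 in all, had log2 changes in hyperoxia at 6 h between -0.21 for Tcf4 and 0.27 for Perp. At 24 h, when 15.5% of all genes rose and 12.8% fell, the structural lists split. Of 3 tested other desmosome genes Perp, a desmosomal membrane protein induced by p53, rose 3.14-fold (1.65 ± 0.19, adjusted p = 1.48e-05), while Ppl (-0.02 ± 0.24) and Evpl (-0.05 ± 0.15), plaque proteins of the plakin family, did not pass. Perp levels were 4.74, 5.37, 4.88 and 4.72 in hyperoxia and 3.12, 3.37, 3.28 and 3.33 in normoxia at 24 h, without overlap. The other 7 desmosome genes listed, the skin desmogleins Dsg1a, Dsg1b, Dsg1c, Dsg3 and Dsg4 and the desmocollins Dsc1 and Dsc3, were too dim to test.

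Of 12 tested catenins and cadherin adaptors 5 rose and 1 fell at 24 h, against 15.5% of all genes higher and 12.8% lower. Plekha7, which ties p120-catenin to microtubules, rose 1.93-fold (0.95 ± 0.20, adjusted p = 0.00206), with -0.06, 0.63, 0.30 and 0.12 in hyperoxia and -0.99, -0.36, -0.76 and -0.69 in normoxia. The p120 relative Arvcf rose by 0.67 ± 0.10 on the log2 scale (0.42 with the mean of its probes, adjusted p = 0.00218) and the LIM protein gene Ajuba by 0.54 ± 0.12. Pkp4, a p120 relative found in both junction types, fell 1.56-fold (-0.64 ± 0.07, adjusted p = 1.42e-05). The remaining calls in that list, named after their values were seen, were Ctnnd1 (p120-catenin) at 0.38 ± 0.11 and Vcl (vinculin) at 0.31 ± 0.09. Of 7 other classical cadherins tested Cdh2, the neural cadherin, rose 1.6-fold (0.68 ± 0.15, adjusted p = 0.00292), with 2.41, 2.69, 2.88 and 2.87 in hyperoxia and 1.85, 2.05, 2.35 and 1.89 in normoxia. Of 5 nectins and afadin Nectin2, listed on the array as Pvrl2, fell by 0.35 on the log2 scale (adjusted p = 0.0216), a call lost in 5 of 8 fits with 1 array left out (adjusted p up to 0.0671) and with the mean of its probes (-0.10, adjusted p = 0.390). No simple keratin passed in limma, where 28.3% of all genes did, nor at an unadjusted p, where that share cannot be smaller. Krt18 was at 0.08 ± 0.11 and Krt8 at 0.16 ± 0.11.

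Among 7 EpCAM partners 1 rose at 24 h and 0 fell, a count near the shares of all genes (15.5% rose and 12.8% fell). Fhl2, a LIM protein that binds the freed EpCAM tail, rose 1.33-fold (0.41 ± 0.09, adjusted p = 0.00349), with levels of 5.63, 5.71, 5.81 and 5.70 in hyperoxia and 5.26, 5.31, 5.28 and 5.34 in normoxia, without overlap. Of 9 genes for shedding and turnover 2 rose, the presenilin Psen2 (0.32 ± 0.08) and the E-cadherin ubiquitin ligase Cbll1 (0.31 ± 0.09), and 2 fell, the protease genes Mmp7 (-1.21 ± 0.19) and Adam17 (-0.33 ± 0.10). At 24 h Mmp7 cleared the background on 1 of 4 hyperoxia and 3 of 4 normoxia arrays, and with normexp background correction its change was -0.46 (adjusted p = 0.000257). The call of Cbll1 was lost without normoxia 24 h replicate 1, normoxia 24 h replicate 2 or hyperoxia 24 h replicate 1, with an adjusted p up to 0.0605. That of Adam17 was lost without hyperoxia 24 h replicate 3 (adjusted p = 0.0562).

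Of 10 activators of junction genes 1 rose and 1 fell at 24 h, and of 8 E-cadherin repressors 0 rose and 1 fell, against 15.5% of all genes higher and 12.8% lower. Among the activators Grhl3, a grainyhead factor of epithelial barrier genes, rose 4.28-fold (2.10 ± 0.18, adjusted p = 8.9e-07) and Klf4 fell 1.7-fold (-0.76 ± 0.17, adjusted p = 0.00336). Grhl3 levels were -2.67, -1.85, -2.53 and -2.41 in hyperoxia and -4.68, -4.14, -4.59 and -4.44 in normoxia, and with normexp background correction the change was 0.92 (adjusted p = 1.42e-05). Among the repressors Snai2, or Slug, fell 1.56-fold (-0.64 ± 0.19, adjusted p = 0.0198), with levels of 2.05, 1.11, 2.07 and 1.87 in hyperoxia and 2.58, 2.19, 2.44 and 2.45 in normoxia. The Snai2 call was lost without normoxia 24 h replicate 1 (adjusted p = 0.0556) and with only the 8 arrays compared (0.0573), and without hyperoxia 24 h replicate 2 the change was -0.42 (adjusted p = 0.0403). Cdh1 itself differed by -0.02 ± 0.15 beside these changes.

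None of 14 genes of the beta-catenin destruction complex and its nuclear partners passed at 24 h in limma, where 28.3% of all genes did. None passed at an unadjusted p under 0.05 either, where the share of all genes cannot be smaller. The brightest of the 14 were Pygo2 at 0.09 ± 0.08 and Csnk1a1 at 0.16 ± 0.12. Of 10 tested feedback targets of beta-catenin 2 rose and 3 fell, where 15.5% of all genes rose and 12.8% fell. The transcription factor gene Sp5 rose by 0.81 ± 0.27 (adjusted p = 0.0341) and Nkd2, a Wnt inhibitor, by 0.45 ± 0.08 (adjusted p = 0.000693), where the mean of all probes of Nkd2 gave the opposite sign (-0.14, adjusted p = 0.593). The receptor gene Lgr5 fell by 0.90 (adjusted p = 0.0499), Nkd1 by 0.70 (adjusted p = 0.0278) and Myc, named after its values were seen, by 0.37 (adjusted p = 0.0154). With 1 array left out in turn, Lgr5 was lost in 7 of 8 fits (adjusted p up to 0.119), Sp5 in 5 (up to 0.0987) and Nkd1 in 5 (up to 0.0769).

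**Figure D5:**
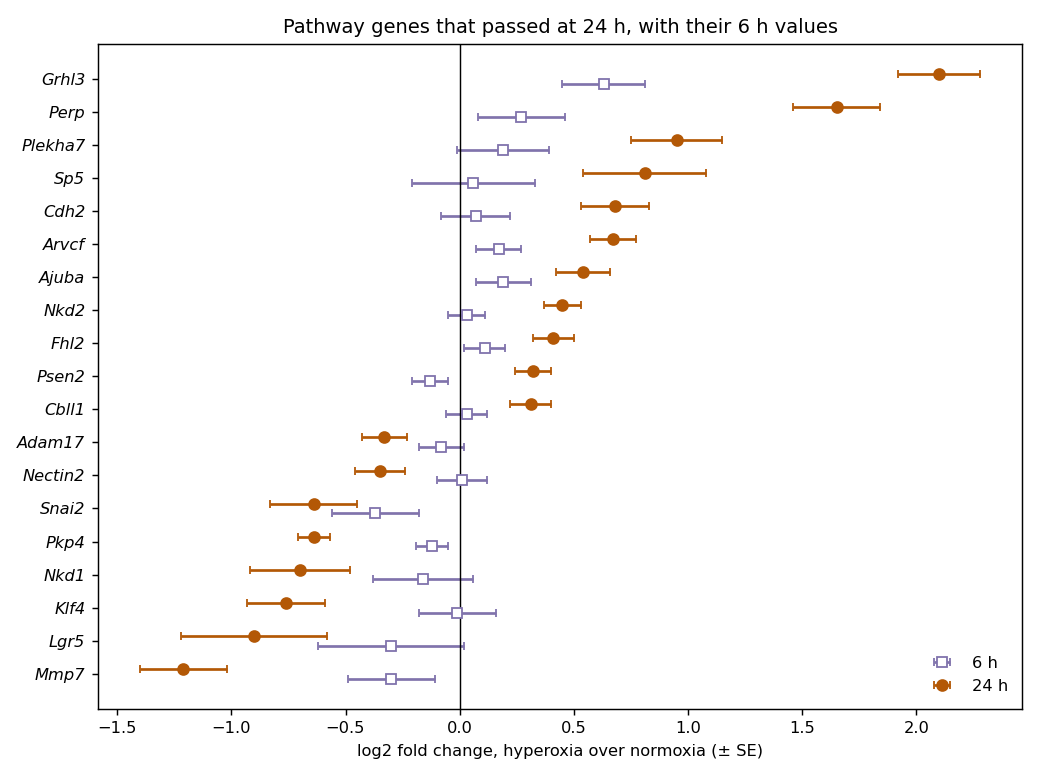
Log2 fold change, hyperoxia over normoxia, of 19 junction components and regulators that passed at 24 h and are named by the rule used, with their 6 h values as open squares (x axis, bars are SE). Grhl3 (2.10) and Perp (1.65) lead at 24 h, and no gene passed at 6 h.

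Over time, 25.0% of all genes rose and 27.3% fell in hyperoxia, and 20.6% rose and 23.5% fell in normoxia, and the counts of the same lists are given against these shares. In hyperoxia 6 of 7 EpCAM partners fell and 1 rose, with Tspan8 at -1.82 ± 0.23 and Cldn7 at -1.46 ± 0.24, the claudin that binds EpCAM. In normoxia 6 fell and 1 rose, with Tspan8 at -1.65 ± 0.23 and Cldn7 at -1.56 ± 0.24. The gene that rose, named after its values were seen, was Fhl2 in each (0.54 ± 0.09 in hyperoxia, adjusted p = 0.000230, and 0.24 ± 0.09 in normoxia, adjusted p = 0.0478). Of 4 simple keratins 3 fell in each oxygen group, Krt19 by -1.90 ± 0.17 in hyperoxia and -1.61 ± 0.17 in normoxia and Krt7 by -1.61 ± 0.19 in hyperoxia and -1.40 ± 0.19 in normoxia. The plakin genes Ppl (-1.45 ± 0.24 in hyperoxia, -1.32 ± 0.24 in normoxia) and Evpl (-0.93 ± 0.15 in hyperoxia, -0.97 ± 0.15 in normoxia) fell as Dsp did.

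Of the 10 activators 7 fell and 1 rose over time in hyperoxia (27.3% of all genes fell and 25.0% rose) and 8 fell and 1 rose in normoxia (23.5% fell and 20.6% rose). The epithelial factor Elf3 changed by -2.21 ± 0.19 in hyperoxia and -1.98 ± 0.19 in normoxia, Grhl1 by -1.42 ± 0.24 in hyperoxia, and Klf4 rose by 2.06 ± 0.17 in normoxia. Of the 8 repressors 4 rose and 0 fell in hyperoxia, with Snai2 at 1.25 ± 0.19 and Zeb1 at 0.57 ± 0.11, and 3 rose and 0 fell in normoxia, with Snai2 at 1.51 ± 0.19 and Zeb2 at 0.52 ± 0.09. Snai2 and the ZEB genes are also expressed by fibroblasts, whose markers rose over the same interval, and the part of that rise in their values was not tested.

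In the other lists genes moved both ways or few were called, and several counts were near the shares of all genes. Among cadherins 3 rose and 1 fell in hyperoxia (Cdh15 -0.80 ± 0.25, Cdh6 0.79 ± 0.18) and 1 rose and 1 fell in normoxia (Cdh11 0.56 ± 0.11, Cdh15 -1.15 ± 0.25). Among catenins and adaptors 3 rose and 3 fell in hyperoxia (Pkp4 -0.79 ± 0.07, Plekha7 -0.76 ± 0.20), and 1 rose and 5 fell in normoxia (Plekha7 -1.52 ± 0.20, Ajuba -0.47 ± 0.12). Nectin4 fell in hyperoxia (-0.95 ± 0.23) and in normoxia (-1.22 ± 0.23), and afadin (Afdn) fell in hyperoxia (-0.64 ± 0.16). In the shedding list Mmp7 fell (-1.18 ± 0.19) and Psen2 rose (0.59 ± 0.08) in hyperoxia, and Src (0.52 ± 0.17) and Rack1 (0.42 ± 0.07) rose in normoxia. Around beta-catenin, Lef1 (0.90 ± 0.12) and Apc (0.66 ± 0.11) rose and Ccnd1 (-0.94 ± 0.18) and Sp5 (-0.88 ± 0.27) fell in hyperoxia, while in normoxia Apc (0.84 ± 0.11) and Gsk3b (0.58 ± 0.12) rose and Sp5 (-1.63 ± 0.27) and Ccnd1 (-1.07 ± 0.18) fell. The call of Src was lost in 4 of 8 fits with 1 array left out (adjusted p up to 0.0804). With normexp the calls of Mmp7 (-0.13, adjusted p = 0.182) and Cdh15 (-0.31, adjusted p = 0.0565) in hyperoxia were lost, Afdn there was at -0.26, and Cdh15 in normoxia was at -0.35 (adjusted p = 0.0344). Under quantile normalization Rack1 was at 0.06 (adjusted p = 0.288) in normoxia, and under median scaling the calls of Ajuba in normoxia (-0.27, adjusted p = 0.0984), Cdh15 in hyperoxia (-0.58, adjusted p = 0.0518) and Sp5 in hyperoxia (-0.66, adjusted p = 0.0513) were lost. With the mean of its probes Apc was at 0.00 (adjusted p = 0.991) in hyperoxia and 0.38 in normoxia.

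The hyperoxia effect at 24 h less the one at 6 h, tested as a contrast of its own, passed for 0 of the 10 junction genes in limma, where 12.3% of all genes passed. At an unadjusted p under 0.05 the count was 0 too. The share of all genes at that threshold was not determined, but cannot be under 12.3%. Without hyperoxia 6 h replicate 3, the highest of its group for 7 of the 10 genes, Ctnnb1 (0.25, adjusted p = 0.0455) and Pkp3 (-0.40, adjusted p = 0.0202) passed. In that fit 19.6% of all genes passed, so 2 of 10 was near the share of all genes. Of the structural relatives the difference passed for Perp (1.38 ± 0.27, adjusted p = 0.00391), Arvcf (0.50 ± 0.14, adjusted p = 0.0326) and Pkp4 (-0.52 ± 0.10, adjusted p = 0.00437), and of the activators for Grhl3 (1.47 ± 0.26, adjusted p = 0.00183). With normexp the Grhl3 contrast was 0.49 and did not pass (adjusted p = 0.0564). The Arvcf contrast was lost in 8 of 16 fits with 1 array left out (adjusted p up to 0.0691).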

How the data were processed

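Total RNA of type II cells was measured on 16 one-colour Agilent arrays. Per the file headers, the processed signal that the authors deposited is an intensity from Feature Extraction 10.7.3.1 (protocol GE1_107_Sep09), background-subtracted within the array. The authors deposited a log2 table of 43964 probes too, with a median of 7.19 on every array, whose normalization is not given in the sources used here and which served only as an alternative. No spot was saturated. Control spots were left out, spots of a probe were averaged (55681 probes), and log2 signals were set relative to each array's 75th percentile. The brightest probe stood for a gene name, which was tested where the scanner software marked that probe above background on 3 or more of the 4 arrays in any group.

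The fit was made with limma 3.58.1 (R 4.3.3), with 1 mean per group over all 16 arrays, two-sided tests and Benjamini-Hochberg adjustment over 25419 genes. On simulated data for hyperoxia against normoxia at 24 h (25419 genes), 100 genes were changed at each size, with noise independent between arrays. There 87% of changes of 1 log2 unit and 39% of changes of 0.5 were recovered, with 10 false calls. In the data 28.3% of genes passed at 24 h and same-numbered arrays correlated, so these rates cannot be carried over to the data. Residuals of same-numbered arrays correlated at 0.244 to 0.344 at 24 h, above 0.1 for all 4 pairs, and at 0.0863 to 0.354 at 6 h, where 3 pairs were above it. The number is the slide column.

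The junction genes and lists were chosen with earlier results of these data known. All 10 were named in every comparison, and of each list up to 4 called genes with the largest change per oxygen comparison, 2 over time, or the 2 brightest where none was called (at 6 h as a range). Older array symbols were matched (Ajuba as Jub, Nectin2 as Pvrl2, Nectin4 as Pvrl4, Afdn as Mllt4, Rack1 as Gnb2l1). One gene of the lists is not reported here. No genome was used, so exon and UTR positions of probes were not determined. Precision is limited by 4 arrays per group. Alternatives were background correction, scaling, the authors' table, filters, probe choice, blocks, and leaving out arrays.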

Additional observations from a re-analysis of the deposited data

Results flagged for a closer look

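In 29 genes, the 10 junction genes and 19 of the list genes named at 24 h, 116 groups of 4 arrays were examined for a single array far from the other 3, and 6 were found, where chance gives about 1 in 20. In hyperoxia at 6 h, replicate 3 stood alone for Epcam (3.49, against 3.03 to 3.08), Grhl3 (-2.23, against -2.85 to -2.81) and Plekha7 (1.55, against 0.78 to 0.87), and replicate 4 for Cdh2 (1.79, against 2.24 to 2.30). Pkp2 on normoxia 24 h replicate 2 was at 3.44, against 2.89 to 2.95, and Adam17 on hyperoxia 24 h replicate 3 at -2.90, against -2.81 to -2.80.

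Limma's test of the difference between the hyperoxia effects at 24 h and 6 h passed for 12.3% of all genes. The effect at 24 h differed from that at 6 h for 7 of the 89 tested list genes, not above that share. It was larger at 24 h for Grhl3 (1.47 ± 0.26), Perp (1.38 ± 0.27), Arvcf (0.50 ± 0.14), Psen2 (0.45 ± 0.11, adjusted p = 0.0197) and Nkd2 (0.42 ± 0.11, adjusted p = 0.0251). It was lower at 24 h for Mmp7 (-0.91 ± 0.26, adjusted p = 0.0367) and Pkp4 (-0.52 ± 0.10). Leaving out 1 array ended the call of Mmp7 in 10 of 16 fits (adjusted p up to 0.0785) and of Nkd2 in 6 (up to 0.0570). With normexp the Mmp7 value was -0.32 and did not pass (adjusted p = 0.0632), and its probe cleared the background on 1 of 4 hyperoxia arrays at 24 h.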

How the results depend on the processing

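Counts of junction genes called over time stayed between 7 and 8 in normoxia and between 6 and 8 in hyperoxia over all alternatives and left-out arrays. Of all genes 33.6% to 53.2% were called there in normoxia and 37% to 58.6% in hyperoxia. For hyperoxia at 6 h the count was 0 in all 18 alternatives, where 0.114% to 0.759% of all genes passed. At 24 h it was 0 in all 8 fits with an array left out, where 23.8% to 25.6% of all genes passed. It was 1 under quantile normalization and 1 in the authors' log2 table (Ctnnb1 in both), where 29% of all genes passed in each. With a replicate block over both times it was 1 (Epcam, adjusted p = 0.0393), where 29.5% of all genes passed. With a replicate block within time it was 1 too (Epcam, adjusted p = 0.0203), where 33.4% did. With only the 8 arrays compared it was 2 (Ctnnb1, adjusted p = 0.042, and Epcam, adjusted p = 0.0155), where 30.3% did. None of these counts was above the share of all genes. With the replicate block over both times Pkp2 over time in normoxia passed as well (adjusted p = 0.0425), as did the contrasts (24 h less 6 h) of Klf4 (0.0455) and Plekha7 (0.0482), and that of Mmp7 did not (0.0553). With the block within time the contrasts of Klf4, Sp5, Nkd1, Plekha7 and Cdh2 passed (adjusted p 0.00296 to 0.0273), and no other call changed under either block. For the difference of effects the count lay between 0 and 2 with an array left out, 2 being without hyperoxia 6 h replicate 3, where 19.6% of all genes passed. With the mean of all probes of a gene the sign of Nkd2 turned (-0.14 at 24 h and -0.13 for the difference) and Apc over time in hyperoxia gave 0.00 (adjusted p = 0.991). The cause was not tested.

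Median scaling moved the median of all genes over time to 0.19 in normoxia and 0.20 in hyperoxia, and under it Jup over time in hyperoxia lost its call (-0.35, adjusted p = 0.119), while Ctnnb1 (0.31) and Pkp3 (0.34) rose there. The number of all genes called at 6 h was 83, against 44 to 193 with an array left out and 29 to 112 otherwise. For the difference it was 3120, against 4974 without hyperoxia 6 h replicate 3. Background correction with normexp moved the changes of Dsc2 over time, of Jup over time in hyperoxia and of Grhl3 and Mmp7 at 24 h by over 1.5 times. Their calls in those comparisons held, that of Jup at -0.36 with an adjusted p of 0.0489.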
